A study of Mus musculus with 26 samples.

Results

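The granule proteases of mast cells and basophils were followed as 10 genes named by mouse symbol, Prss34, Mcpt8, Cma1, Mcpt1, Mcpt2, Mcpt4, Cpa3, Tpsb2, Tpsab1 and Tpsg1. All 10 were found among the 54146 gene identifiers of the count files, and 6 of them passed the filter on low counts. Both groups of cultures were made from mouse bone marrow cells depleted of mature lineages and carried MLL-AF9 (MA9), a leukemia fusion oncogene delivered by retrovirus. The MA9+EV cultures (3 libraries) also received the empty puromycin-resistance vector MSCVpuro, and the MA9+SETDB1 cultures (3 libraries) received SETDB1, an enzyme that methylates histone H3 at lysine 9. The labels describe growth for 8 to 12 weeks, puromycin selection for 3 to 6 weeks, and medium with IL-3 and SCF. The design text of the series calls the 3 RNA libraries of a group biological replicates, and whether each stands for its own transduction or its own animals is not stated in the labels. The animals' age and strain are not given in the sources used here. The comparison asked how the transcripts of these proteases differed when SETDB1 was overexpressed. In RNA from whole cultures, more cells with a transcript and more RNA per cell cannot be told apart.

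Mast cells and basophils store proteases in secretory granules, bound to serglycin proteoglycan, and release them when IgE receptors are crosslinked. Most belong to the trypsin-like serine proteases, which are made as inactive precursors and trimmed in the granule. Chymases cut after aromatic residues, tryptases cut after lysine or arginine, and carboxypeptidase A3 removes single residues from the carboxyl end. Which of them a cell makes is widely used to tell basophils, connective tissue mast cells and mucosal mast cells apart.

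Gene counts summed to between 18070482 and 22561757 per library. Levels are given as CPM, counts per 1000000 counts of the library size after scaling by TMM factors. Setdb1 itself stood at 105 to 109 CPM in the MA9+EV libraries and 475 to 607 CPM in the MA9+SETDB1 libraries. Of 12986 genes tested, 27.4% were higher and 26.2% were lower in MA9+SETDB1 (edgeR adjusted p under 0.05), 53.5% in all. In 32.1% of them, all 3 MA9+SETDB1 libraries lay above all 3 MA9+EV libraries. Replicates 2 and 3 of each group were much closer to each other than to replicate 1, and p-values measure only the spread between these libraries.

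The 6 proteases that passed the filter, Prss34, Mcpt8, Cma1, Cpa3, Tpsb2 and Tpsg1, were all higher in MA9+SETDB1 (edgeR adjusted p under 0.05), against 27.4% of all tested genes. A gene that passes the filter only through the group in which it is high had to differ, and this holds for all of them but Mcpt8. Of the other members, Mcpt1, Mcpt2 and Tpsab1 had low counts in MA9+SETDB1 and none in MA9+EV, and Mcpt4 had no counts in any library. Over all 10 members the groups did not overlap for 8, with Tpsab1 and Mcpt4 as the exceptions. Among all tested genes, 32.1% had all 3 MA9+SETDB1 libraries above all 3 MA9+EV libraries. That share leaves out untested genes such as Mcpt1 and Mcpt2, which are among the 8. All of the 8 but Mcpt8 had few or no counts in MA9+EV, so non-overlap adds little to their detection in MA9+SETDB1. Together the members took 0.00162%, 0.00307% and 0.00283% of the gene counts in MA9+EV replicates 1, 2 and 3. In MA9+SETDB1 replicates 1, 2 and 3 they took 0.585%, 0.424% and 0.436%. Without Prss34 these MA9+SETDB1 shares were 0.26%, 0.0983% and 0.0964%.

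**Figure D1:**
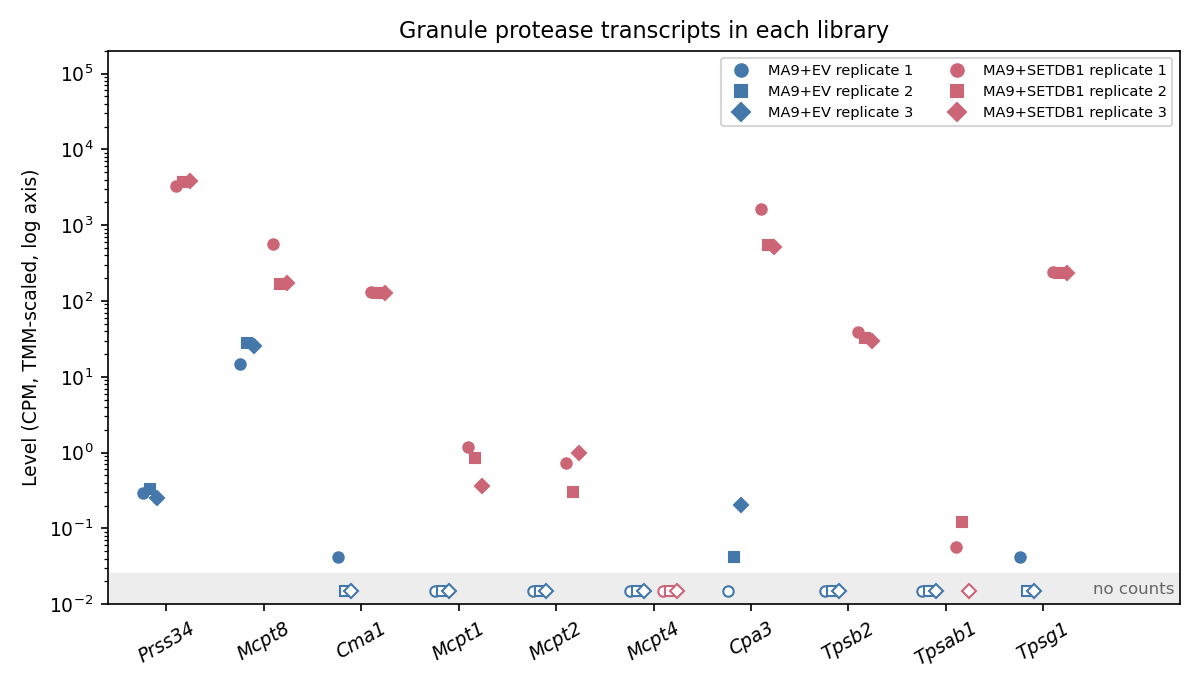
Level of each protease transcript in each library, in CPM on a log axis, with MA9+EV in blue and MA9+SETDB1 in red. Open symbols in the grey band are libraries without counts. Mcpt8 stands at 14.7 CPM or more in each MA9+EV library, and Mcpt4 is without counts in all 6 libraries.

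The serine protease members lie in 2 gene clusters. In the RefSeq annotation of GRCm38.p6, the chymase locus on chromosome 14 holds, in order, Cma1 (55941451 to 55944675), Mcpt1 (56017964 to 56020391), Mcpt2 (56021584 to 56044635), Mcpt4 (56059744 to 56062310) and Mcpt8 (56082163 to 56085499). The tryptase locus on chromosome 17 holds Prss34 (25298394 to 25300168), Tpsab1 (25343245 to 25345562), Tpsb2 (25366308 to 25368096) and Tpsg1 (25369195 to 25374442). Cpa3 lies apart, on chromosome 3 (20215616 to 20242209).

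The 250 bases before an annotated transcript start, from RefSeq on GRCm38.p6, were at hand for 7 of the 10 members. They are shown for the 4 proteases whose levels the results turn on and for the close pair Mcpt1 and Mcpt4, because Mcpt1 was detected in MA9+SETDB1 and Mcpt4 was not. Each runs 5′ to 3′ on the gene's strand, and capitals mark GATAA, the core bound by GATA factors, on either strand.
Prss34, chr17:25298144-25298393, plus strand: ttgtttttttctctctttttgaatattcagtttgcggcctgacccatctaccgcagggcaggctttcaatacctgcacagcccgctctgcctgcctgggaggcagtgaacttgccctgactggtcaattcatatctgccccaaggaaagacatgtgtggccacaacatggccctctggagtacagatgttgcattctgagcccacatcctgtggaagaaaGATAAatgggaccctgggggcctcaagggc
Mcpt8, chr14:56085198-56085447, minus strand: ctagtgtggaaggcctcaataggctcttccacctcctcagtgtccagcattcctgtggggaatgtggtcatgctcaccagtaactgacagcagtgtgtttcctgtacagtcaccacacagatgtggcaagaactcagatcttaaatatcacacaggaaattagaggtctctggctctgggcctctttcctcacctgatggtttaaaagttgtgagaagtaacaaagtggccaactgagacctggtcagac
Cma1, chr14:55944676-55944925, minus strand: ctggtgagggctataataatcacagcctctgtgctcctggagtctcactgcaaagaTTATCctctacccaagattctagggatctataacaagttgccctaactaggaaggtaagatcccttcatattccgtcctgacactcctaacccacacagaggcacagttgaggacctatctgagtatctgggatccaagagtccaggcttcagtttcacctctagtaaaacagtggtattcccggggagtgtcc
Cpa3, chr3:20242182-20242431, minus strand: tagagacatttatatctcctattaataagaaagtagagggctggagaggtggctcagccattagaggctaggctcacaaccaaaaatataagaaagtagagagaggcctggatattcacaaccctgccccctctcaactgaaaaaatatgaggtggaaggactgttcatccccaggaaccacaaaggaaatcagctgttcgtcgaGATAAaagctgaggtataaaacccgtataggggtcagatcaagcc
Mcpt1, chr14:56017714-56017963, plus strand: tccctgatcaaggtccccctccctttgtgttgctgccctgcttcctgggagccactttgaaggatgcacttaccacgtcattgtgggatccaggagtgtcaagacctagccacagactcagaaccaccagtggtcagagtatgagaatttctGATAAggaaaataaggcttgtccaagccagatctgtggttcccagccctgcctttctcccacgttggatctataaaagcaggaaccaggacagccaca
Mcpt4, chr14:56062311-56062560, minus strand: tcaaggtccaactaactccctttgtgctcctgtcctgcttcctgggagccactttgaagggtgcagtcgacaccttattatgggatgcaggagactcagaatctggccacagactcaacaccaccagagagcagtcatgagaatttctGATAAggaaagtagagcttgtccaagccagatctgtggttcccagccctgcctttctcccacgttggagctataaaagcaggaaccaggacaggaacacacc

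In a global alignment the Mcpt1 and Mcpt4 windows shared 213 bases over 260 aligned positions (81.9%), including the stretch around GATAA, which begins 98 bases before the Mcpt1 start and 102 before the Mcpt4 start. The other pairs of member windows ranged from 47.6% to 54.3% identity. Searched on both strands, GATAA was in 6 of the 8 member windows (Tpsg1 has 2 annotated starts), against 22.6% of 32851 windows of the same length. The windows without a match were those of Mcpt8 and of the second Tpsg1 start. The Mcpt8 window precedes a transcript start inside the gene's annotated span, and the bases before the outer end of that span were not searched. The Cpa3 window and both Tpsg1 windows also precede starts inside the spans of their genes. Those of Cpa3 and of the first Tpsg1 start reach past the outer end. The E-box CANNTG was in 5 of the 8 windows and in 66.2% of all windows, and the RUNX motif TGTGGT was in 5 of 8 and 14% of all. The TATA motif TATAAA was in 3 of 8 and 12.4% of all. The STAT motif TTCNNNGAA and the C/EBP motif TTGCNNAA were in none of the 8, and in 7.02% and 9.56% of all windows. Matches of different motifs may overlap, and a match describes these letters only. Mcpt1 and Mcpt4 had the same number of matches to each of these motifs.

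Prss34 and Mcpt8 encode the serine proteases by which mouse basophils are known. Prss34 (ENSMUSG00000056399.1) had 7, 8 and 5 counts in MA9+EV replicates 1, 2 and 3, equal to 0.289, 0.332 and 0.252 CPM. MA9+SETDB1 replicates 1, 2 and 3 stood at 3287, 3678 and 3802 CPM. The MA9+SETDB1 libraries were thus close together and far above every MA9+EV library. The log2 difference was 13.55 (SE 0.24, edgeR adjusted p = 5.49e-07). These levels rest on 20 counts over the MA9+EV group and 192393 over the MA9+SETDB1 group.

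Mcpt8 (ENSMUSG00000022157.8) was already present in MA9+EV, at 14.7, 28.1 and 25.4 CPM in replicates 1, 2 and 3. Its MA9+SETDB1 values were 568, 169 and 170.3 CPM in the same order. The groups did not overlap, but MA9+SETDB1 replicate 1 was 3.35 times the mean of the other two. The log2 difference was 3.73 (SE 0.58, edgeR adjusted p = 0.00174), and 2.91 (SE 0.26, edgeR adjusted p = 0.000307) without MA9+SETDB1 replicate 1. Mcpt8 and Prss34 therefore stood in a very different proportion in the 2 groups. Per count of Prss34 there were 51, 84.6 and 101 counts of Mcpt8 in MA9+EV replicates 1, 2 and 3, and 0.173, 0.0458 and 0.0448 in MA9+SETDB1.

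Cma1, Mcpt1, Mcpt2 and Mcpt4 are the mast cell members of the chymase locus. Cma1 (ENSMUSG00000022225.7) encodes a chymase-family protease of connective tissue mast cells, which in the mouse has elastase-like activity. Replicate 1 held its 1 count in MA9+EV, and it stood at 130.3, 126 and 128 CPM in MA9+SETDB1 replicates 1, 2 and 3. Its coefficient of variation over these libraries was 1.79%, the lowest of the 8 members with more than 3 counts there. The ratio of normalized counts was 8731 (exact 95% binomial interval 1566 to 344897, counting error only), with an edgeR adjusted p = 1.19e-06.

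Mcpt1 (ENSMUSG00000022227.5) and Mcpt2 (ENSMUSG00000022226.6) encode proteases of mucosal mast cells. Mcpt1 had no counts in MA9+EV and 21, 14 and 7 counts in MA9+SETDB1 replicates 1, 2 and 3, which makes it at least 17.8-fold higher when the MA9+EV group is set to a floor of 3 counts. Mcpt2 had no counts in MA9+EV and 13, 5 and 19 counts, at least 15.7-fold higher. Both stayed below the filter on low counts. The exact two-sided permutation p was 0.1 for each, the smallest that 3 libraries against 3 allow. With no such filter edgeR adjusted p-values were 0.00147 for Mcpt1 and 0.00196 for Mcpt2.

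Mcpt4 (ENSMUSG00000061068.7), a chymase of connective tissue mast cells that shares most of its upstream window with Mcpt1, had 0 counts in each of the 6 libraries. Over a group, a count of 0 allows a level of up to 0.044 CPM for MA9+EV and 0.056 CPM for MA9+SETDB1. Mcpt1, Mcpt2 and Mcpt4 are close paralogs, and reads that aligned to more than 1 place (18.4% to 20.2% of entries per library) were not assigned to genes. Their counts are therefore uncertain.

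Cpa3 (ENSMUSG00000001865.2) encodes the metallocarboxypeptidase of mast cells and basophils, which is also expressed in their progenitors. It had 0, 1 and 4 counts in MA9+EV replicates 1, 2 and 3. In MA9+SETDB1 replicates 1, 2 and 3 it stood at 1647, 548 and 515 CPM. All 3 were far above MA9+EV, and replicate 1 was again the high one, at 3.1 times the mean of the other two. The log2 difference between groups was 13.46 (SE 0.95, edgeR adjusted p = 6.09e-05), and 12.72 (SE 0.40, edgeR adjusted p = 7.71e-06) without MA9+SETDB1 replicate 1. With so few MA9+EV counts the size depended on those libraries too. It was 15.03 without MA9+EV replicate 3, which held 4 of the 5 counts, and 12.87 without MA9+EV replicate 1 (edgeR adjusted p = 0.000581 and 0.000612).

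Tpsb2, Tpsab1 and Tpsg1 are tryptase genes. Tpsb2 (ENSMUSG00000033825.9) encodes a tryptase stored in granules of connective tissue mast cells. It had no counts in MA9+EV and stood at 38.7, 32.7 and 29.8 CPM in MA9+SETDB1 replicates 1, 2 and 3. Against the same floor it was at least 765-fold higher (edgeR adjusted p = 3.65e-05). Tpsg1 (ENSMUSG00000033200.16) encodes a tryptase that stays anchored in the membrane. A single count was found in MA9+EV replicate 1, and the MA9+SETDB1 libraries stood at 243, 233 and 234 CPM. The ratio of normalized counts was 16112 (exact 95% binomial interval 2891 to 636452, counting error only), with an edgeR adjusted p = 1.02e-06. Cacna1h, a calcium channel gene named after its value was seen because its span overlaps that of Tpsg1, had no counts in MA9+EV and a mean of 0.0749 CPM in MA9+SETDB1. Tpsab1 (ENSMUSG00000024173.10), the neighbouring tryptase gene that RefSeq annotates as a transcribed pseudogene in GRCm38.p6, had no counts in MA9+EV and 1, 2 and 0 counts in MA9+SETDB1. It is a close paralog of Tpsb2, so its count is uncertain in the same way as those of the Mcpt genes.

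The members differed in how evenly they were expressed within the MA9+SETDB1 group. Coefficients of variation over the 3 libraries were 7.49% for Prss34, 1.79% for Cma1, 2.34% for Tpsg1 and 13.5% for Tpsb2, against 76.1% for Mcpt8 and 71.3% for Cpa3. Mcpt1 and Mcpt2, at few counts, had 51.3% and 51.2%, and replicate 1 was at 1.93 and 1.13 times the mean of the other two. Replicates 2 and 3 differed little for Mcpt8 and Cpa3, with ratios of 0.99 and 1.06. Cpa3 and Mcpt8 kept a similar proportion to each other, with 2.9, 3.25 and 3.02 counts of Cpa3 per count of Mcpt8 in replicates 1, 2 and 3. Of 8334 tested genes with at least 10 CPM in every MA9+SETDB1 library, 22, Mcpt8 included, had a replicate 1 excess as large as that of Mcpt8, and 35 one as large as that of Cpa3. Which feature of replicate 1 goes with this excess was not tested.

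**Figure D2:**
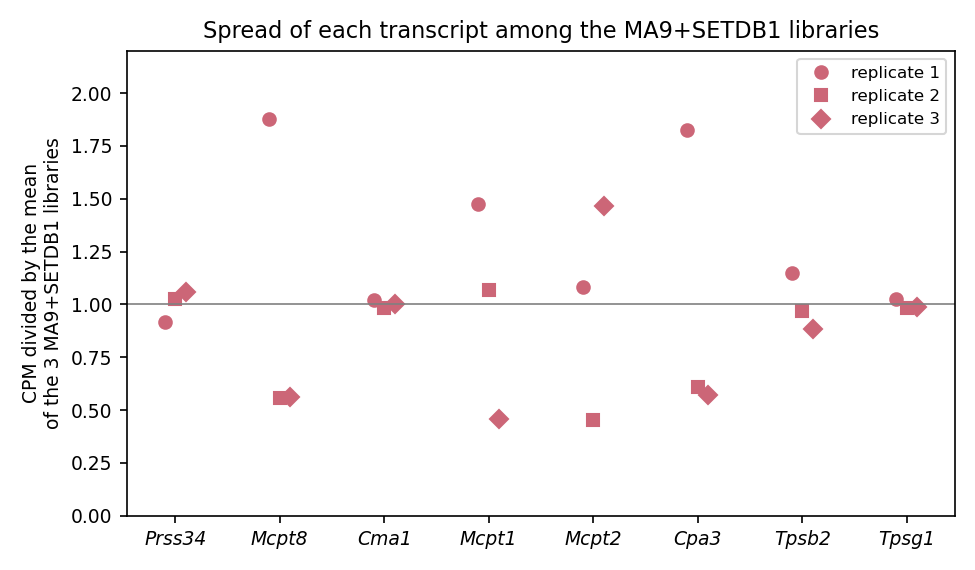
CPM of each member in MA9+SETDB1 replicates 1, 2 and 3, divided by the mean of the 3, for the 8 members with 37 or more counts in that group. Mcpt8 and Cpa3 are high in replicate 1, while Prss34, Cma1 and Tpsg1 lie near 1. Mcpt1 and Mcpt2 rest on 42 and 37 counts.

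At the chymase locus the tested proteases beside the members moved in both directions. Of 10 listed chymase locus genes that are no members, 2 were tested. Ctsg, the cathepsin G gene, which begins 14386 bases from Mcpt8, fell from 2182 ± 361 to 42.4 ± 49.5 CPM (SD, n = 3 per group, edgeR adjusted p = 0.00217). In MA9+SETDB1 replicates 1, 2 and 3 Ctsg stood at 99.5, 13.3 and 14.4 CPM, so it too was highest in replicate 1. Gzmb, which encodes granzyme B in the same locus, had 3 counts in MA9+EV. It passed the filter only through MA9+SETDB1 and so had to differ. In MA9+SETDB1 replicates 1, 2 and 3 it stood at 128, 402 and 412 CPM (edgeR adjusted p = 4.83e-05), lowest in replicate 1. Between Cma1 and Mcpt8, the genes Cma2 and Mcpt9 had 12 and 2 counts in MA9+SETDB1 and none in MA9+EV. Gzmc, Gzmd, Gzmf, Gzmg and Gzmn had no counts in any library.

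At the tryptase locus the tested proteases, the members Prss34, Tpsb2 and Tpsg1 and their neighbour Prss28, were all higher in MA9+SETDB1. Each of them passed the filter only through MA9+SETDB1 and so had to differ. Prss28, a serine protease gene 8478 bases from Prss34, had no counts in MA9+EV and stood at 12, 11.1 and 15.2 CPM in MA9+SETDB1 replicates 1, 2 and 3, at least 293-fold higher (edgeR adjusted p = 0.000112). Prss29, which lies 18486 bases from Prss34, had 5 counts in MA9+SETDB1 and none in MA9+EV. The list named for this locus held 7 further serine protease genes of chromosome 17 that lie more than 200 kb from every member, and none of them passed the filter on low counts.

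All annotated genes within 200 kb of a member were then counted. Around the chymase locus 9 of 13 tested genes were higher and 1 was lower, with a median log2 fold change of 2.26, beside -0.01 over all tested genes. The one lower gene was Ctsg. Gzmb, Ltb4r2 and Adcy4, at means of 0.0474, 0.301 and 0.0168 CPM in MA9+EV, passed the filter only through MA9+SETDB1. They had to differ, and they raise the number of higher genes and the median. Ltb4r2 and Adcy4 were named after their values were seen. Chosen after their values were seen, Dhrs1, a dehydrogenase gene, went from 30 ± 7.25 to 194 ± 56.7 CPM, and Sdr39u1 from 5.95 ± 1.75 to 89 ± 7.28 CPM (SD, n = 3). Ripk3, a kinase gene of necroptosis, went from 40.6 ± 6.43 to 127 ± 14.5 CPM. Around the tryptase locus 4 of 12 were higher and 1 was lower, with a median of 0.36. Of those 4, Prss28 had to differ for the same reason. Over all tested genes 27.4% were higher and 26.2% lower. Around Cpa3 none of 3 was higher and 1 was lower. These 3 were also named after their values were seen. Gyg and Hltf beside Cpa3 had log2 fold changes of 0.22 and 0.03, and Hps3 fell by 0.47 on that scale (edgeR adjusted p = 0.00618).

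**Figure D3:**
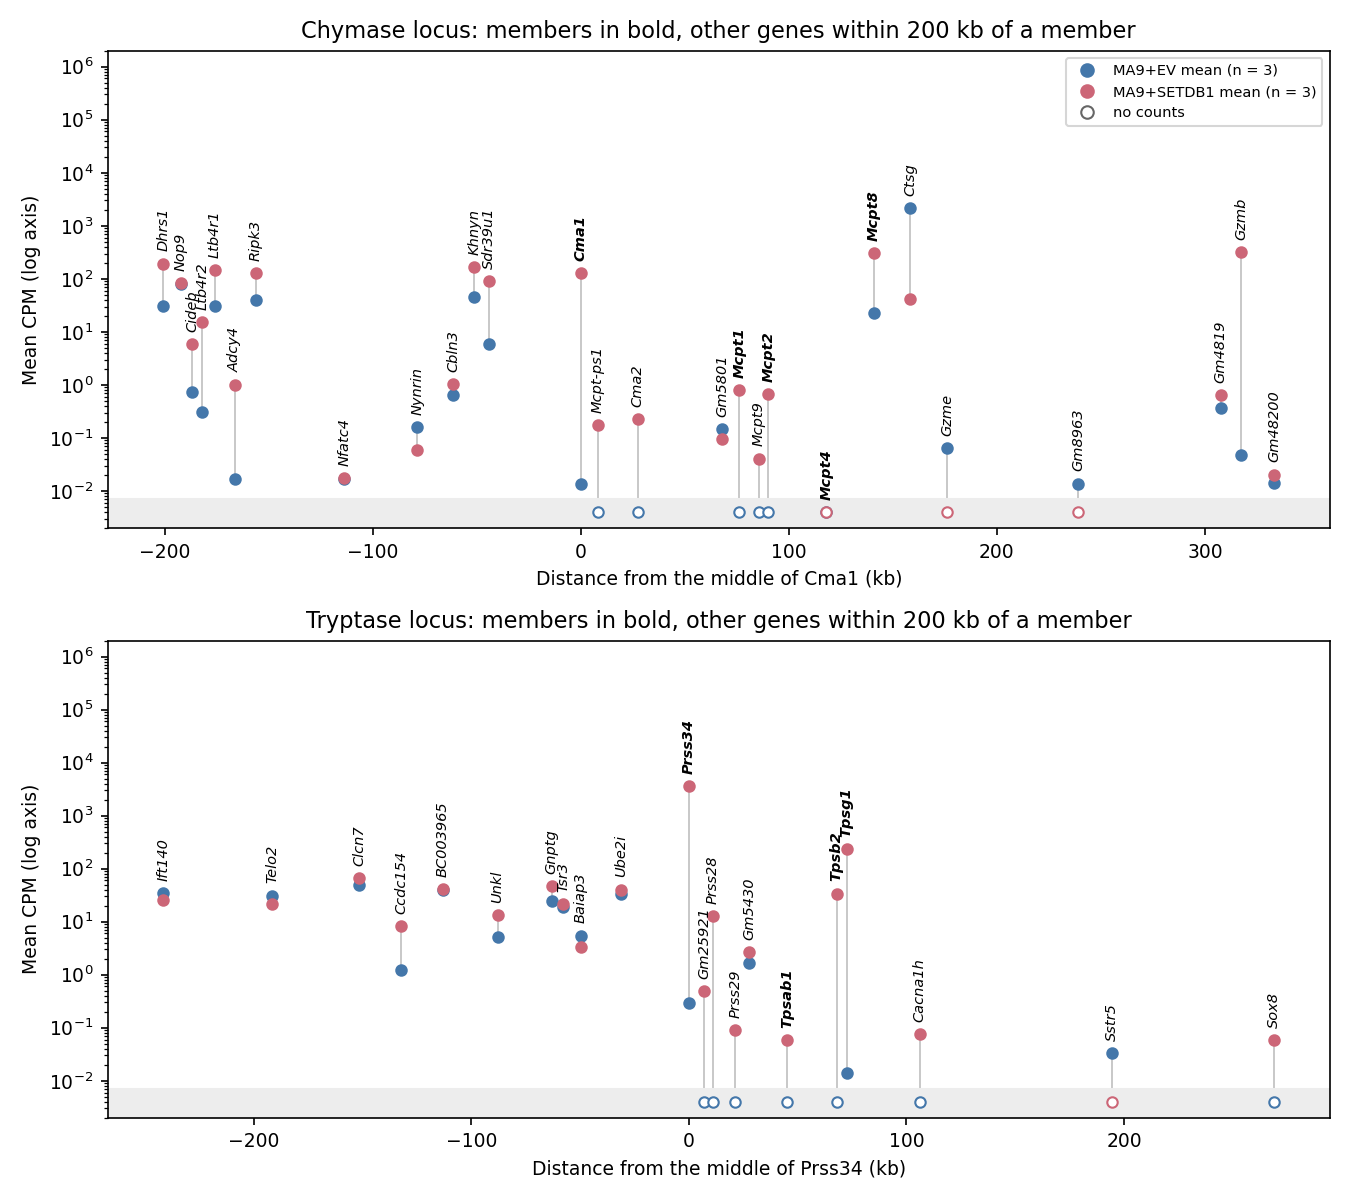
Mean CPM (log axis, n = 3 per group) of members (bold) and of other genes with counts within 200 kb of a member, by distance in kb from the middle of Cma1 or Prss34. Open symbols mark no counts. Cma1, Mcpt8 and Gzmb are high in MA9+SETDB1 (red), the genes from Mcpt1 to Mcpt4 are near 0, and Ctsg is higher in MA9+EV (blue).

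Genes that store and process granule proteases were tested from a list of 20, of which 14 were higher and 4 lower. Their median log2 fold change was 1.38, and over all tested genes 27.4% were higher and 26.2% lower. Slc18a2, the vesicular monoamine transporter, went from 0.0551 ± 0.0631 to 325 ± 137 CPM, and Hdc, the histamine-forming enzyme, from 30.4 ± 24.6 to 1956 ± 720 CPM. Slc18a2, with 4 counts in MA9+EV, passed the filter only through MA9+SETDB1 and so had to differ. Chst15 and Hs6st1, sulfotransferases of chondroitin and heparan chains, had means of 15.5 ± 1.49 and 28.6 ± 5.81 CPM in MA9+EV, and of 144 ± 42.8 and 110.5 ± 4.02 CPM in MA9+SETDB1. Ctsc, Srgn, Ndst2, Ctsl and Ctss of the same list were chosen after their values were seen. Ctsc encodes the dipeptidyl peptidase that trims the precursors of chymases and granzymes. It rose from 122 to 456 CPM (edgeR adjusted p = 0.00957). Srgn, the serglycin core protein, rose from 2223 to 6575 CPM (edgeR adjusted p = 0.00471). Ndst2, needed for heparin in mast cells, stood at 195, 70.2 and 70.2 CPM in MA9+SETDB1 replicates 1, 2 and 3, against a mean of 28 CPM in MA9+EV (edgeR adjusted p = 0.0068). The cathepsin genes Ctsl and Ctss fell, Ctsl from 82.8 to 6.53 CPM and Ctss from 5.14 to 0.762 CPM (edgeR adjusted p = 0.00506 and 0.00209).

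Genes of granule formation and release had 9 of 20 tested higher and 5 lower, with a median of -0.03. Over all tested genes 27.4% were higher and 26.2% lower, so the lower share was near the general one. Rab27b, a granule docking GTPase, had 2 counts in MA9+EV and stood at 238 ± 39.5 CPM in MA9+SETDB1, while its paralog Rab27a fell from 263 to 84.1 CPM (edgeR adjusted p = 0.00104, named after its value was seen). Rab27b passed the filter only through MA9+SETDB1 and so had to differ. Snap23 and Unc13d, which act in membrane fusion, both rose, Snap23 from 91.7 ± 4.51 to 947 ± 174 CPM and Unc13d from 110.1 ± 13.1 to 378 ± 6.57 CPM. Rab32 fell from 140 ± 9.29 to 10.2 ± 2.44 CPM.

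Protease inhibitors had 6 of 14 tested genes higher and 4 lower (median -0.07), beside 27.4% higher and 26.2% lower over all tested genes. Serpinb6a, a serpin gene, went from 6.53 ± 1.2 to 88.4 ± 48.3 CPM, and Serpina3f from 0.92 ± 0.654 to 22.7 ± 5.16 CPM. Spint2, an inhibitor of trypsin-like proteases, went from 71.4 ± 5.06 to 181 ± 29.7 CPM, and the metalloprotease inhibitor Timp2 from 27.2 ± 13.4 to 0.551 ± 0.207 CPM. Other metallocarboxypeptidases did not follow Cpa3, with none of 5 tested higher and 1 lower, Cpq, which went from 29.7 ± 18.2 to 0.0782 ± 0.0941 CPM. Without MA9+SETDB1 replicate 1 these counts were 1 higher and 2 lower. Cpq passed the filter only through MA9+EV and so had to differ. The list labelled primary granule proteases, genes of neutrophil precursors, fell in all 6 cases, with a median of -6.80. It includes Mpo and Ms4a3, which are not proteases. Elane went from 6174 ± 628 to 4.83 ± 0.36 CPM and Prtn3 from 2347 ± 198 to 9.75 ± 1.72 CPM.

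**Figure D4:**
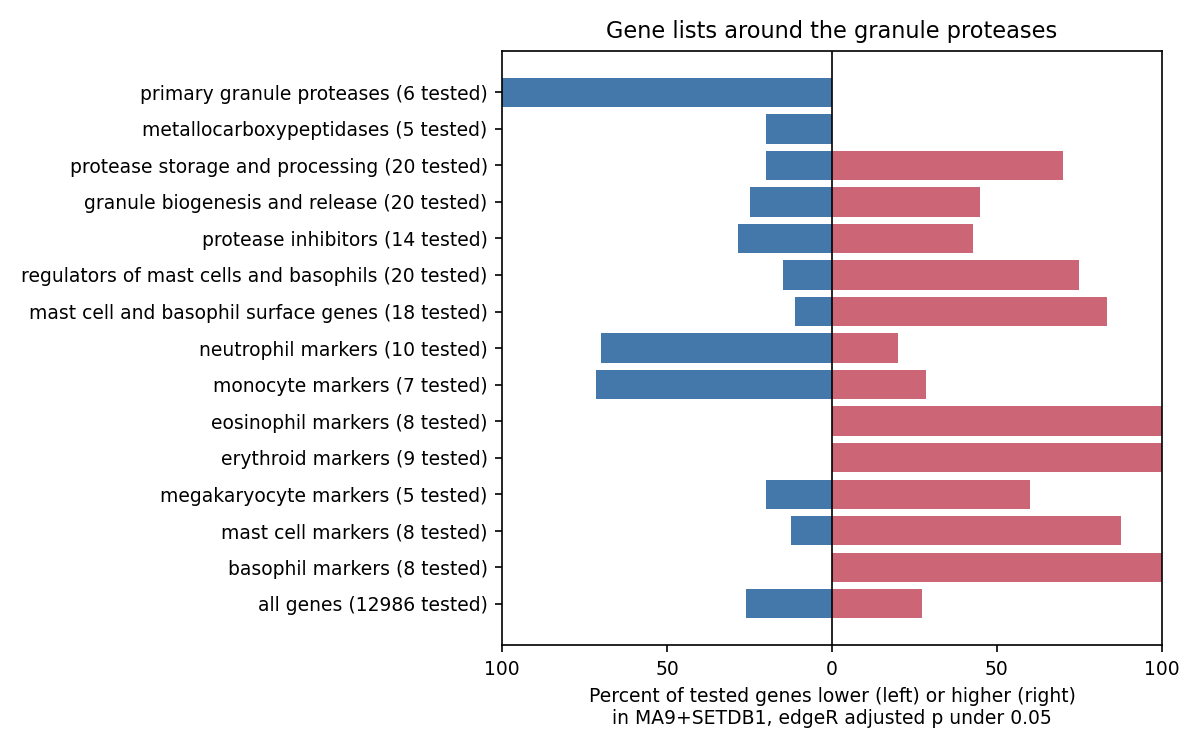
Percent of the tested genes of each list that were higher (red, right) or lower (blue, left) in MA9+SETDB1, for lists with at least 5 tested genes, with all 12986 tested genes in the last bar. The basophil, eosinophil and erythroid markers and the list labelled primary granule proteases have all tested genes on one side. That last list also holds Mpo and Ms4a3, which are not proteases.

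A list of 20 regulator genes chosen for mast cells and basophils had 15 higher and 3 lower, with a median of 0.88. Over all tested genes 27.4% were higher and 26.2% lower. The list does not separate genes that these cells need from others, such as Zfpm1, named after its value was seen. Gata1 and Tal1, transcription factor genes, both rose, Gata1 from 0.208 ± 0.043 to 238 ± 15.6 CPM and Tal1 from 0.078 ± 0.0633 to 284 ± 41.6 CPM. Ikzf2 went from 0.072 ± 0.0187 to 252 ± 27.1 CPM, and Lmo4 fell from 97.4 ± 2.05 to 13.6 ± 0.547 CPM. Gata1, Tal1, Ikzf2 and Hes1, with 14, 5, 5 and 1 counts in MA9+EV, passed the filter only through MA9+SETDB1 and had to be higher. Irf8 and Nfia passed it only through MA9+EV and had to be lower. Hes1, Irf8 and Nfia were named after their values were seen. Mitf, the factor best known for activating mast cell protease genes, went from 9.93 to 20 CPM (edgeR adjusted p = 0.0256), and Cebpa, which basophils keep and mast cells lose, from 195 to 323 CPM (edgeR adjusted p = 0.00469). Both were named after their values were seen. In the MA9+SETDB1 libraries Gata1, at 221, 241 and 252 CPM in replicates 1, 2 and 3, did not show the replicate 1 excess of Mcpt8 and Cpa3.

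The members were set beside lists of basophil and mast cell markers. These lists and their sums include members, and both hold Fcer1a, Ms4a2 and Gata2, so they are no separate check of the set's label. Prss34, Fcer1a and Cd200r3, with 20, 9 and 3 counts in MA9+EV, passed the filter only through MA9+SETDB1 and had to differ. The same holds for the mast cell markers Cma1, Cpa3 and Tpsb2, with 1, 5 and 0 counts in MA9+EV. All 8 basophil markers were higher in MA9+SETDB1, where 27.4% of all tested genes were higher and 26.2% lower. Of the 8, 2 are members, Mcpt8 and Prss34. The summed level of the 8 basophil markers was 224 to 305 CPM in MA9+EV and 9348 to 10443 CPM in MA9+SETDB1. Of 8 mast cell markers 7 were higher, 3 of them members, with sums of 130 to 135 CPM and 5285 to 6130 CPM. The exception, named as such after its value was seen, was Kit, the receptor for SCF and a defining marker of mast cells, which fell from 114 CPM to 2.46, 0.183 and 0.571 CPM in the MA9+SETDB1 libraries (edgeR adjusted p = 0.000232). Of the surface genes, 3 more were chosen after their values were seen. Mrgprb1 and Mrgprb2, receptors of connective tissue mast cells, had no counts in any library, and Enpp3 had none in MA9+EV and a mean of 0.0203 CPM in MA9+SETDB1.

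Among surface genes of both cell types 15 of 18 tested were higher and 2 were lower (median 3.25), against 27.4% and 26.2% of all tested genes. For the alpha chain of the IgE receptor, Fcer1a, the means were 0.139 ± 0.0976 and 1477 ± 89.1 CPM. Those of the beta chain gene Ms4a2 were 7.11 ± 3.13 and 1686 ± 60.3 CPM. Cd200r3, a receptor of basophils and mast cells, had 3 counts in MA9+EV and stood at 746, 1420 and 1420 CPM in MA9+SETDB1 replicates 1, 2 and 3. Il1rl1, the IL-33 receptor, went from 0.0688 ± 0.119 to 1202 ± 66.3 CPM. Fcer1a, Cd200r3 and Il1rl1 passed the filter only through MA9+SETDB1 and so had to differ.

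Lists of markers of other cell types went in both directions, where 27.4% of all tested genes were higher and 26.2% lower. All 8 eosinophil and all 9 erythroid markers were higher. They summed to 217 to 224 CPM and 1332 to 1652 CPM in MA9+SETDB1, against 4.84 to 7.14 CPM and 0.578 to 1.26 CPM in MA9+EV. All of these genes except Siglecf and Klf1, named after their values were seen, passed the filter only through MA9+SETDB1 and had to differ. Of 5 tested megakaryocyte markers 3 were higher and 1 lower, with sums of 2.73 to 3.48 CPM and 525 to 665 CPM. Nearly all of the MA9+SETDB1 sum was Itga2b, at 644, 518 and 532 CPM in replicates 1, 2 and 3, while Pf4 fell from 1.14 to 0.245 CPM. Itga2b passed the filter only through MA9+SETDB1 and Pf4 only through MA9+EV, so each had to differ. Neutrophil markers (7 of 10 lower, 2 higher) summed to 823 to 3962 CPM in MA9+EV and 376 to 591 CPM in MA9+SETDB1. Most of the MA9+SETDB1 sum was Ly6g, which rose from 10.6 ± 0.919 to 435 ± 124 CPM, whereas S100a8 fell from 690 ± 623 to 0.427 ± 0.0919 CPM. S100a8 passed the filter only through MA9+EV and so had to differ. Monocyte markers (5 of 7 lower, 2 higher) summed to 2444 to 4201 CPM and 746 to 1653 CPM. The largest part of the MA9+SETDB1 sum was Adgre1, named after its value was seen, which rose from 11.1 to 923 CPM. T and NK cell markers summed to 17.8 to 24.4 CPM and 22.9 to 46.8 CPM, and Cd3e, Gzma, Klrb1c and Ncr1 among them had no counts in any library. Stromal and endothelial markers (1 of 3 tested higher, 2 lower) summed to 231 to 366 CPM and 162 to 217 CPM. The part of these cell markers in the protease levels was not tested.

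The genes with profiles most like 4 of the members were found by the Euclidean distance of log2(CPM + 0.5) over the 6 libraries, among tested genes other than members. For Prss34 they were Fcer1a, Il1rl1 and Gata2, at distances of 2.32, 2.91 and 2.99. For Cma1 they were Alox15, Il9r and Gpc4, at 0.523, 0.599 and 0.63. For Cpa3 they were Pdyn, Itga2b and Il1rl1, at 1.29, 1.65 and 1.79. For Mcpt8 they were Cdc25b, Galnt6 and Acss1, at 1.22, 1.33 and 1.35, all at 8.96 CPM or more in each MA9+EV library. Of these, Cdc25b stood at 283, 144 and 138 CPM in the MA9+SETDB1 libraries, with replicate 1 high as for Mcpt8.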

How the data were processed

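Of 26 samples in the series, the 6 RNA-seq libraries were used, and the 20 chromatin samples were not analysed here. The deposited values are raw read counts per gene, without normalization. Per the submitters' processing notes the build was GRCm38, and the tools named, without role or order, include STAR 2.6.0c and HTSeq 0.11.0. Per the labels' protocols the libraries were strand-specific and poly-A selected. No source used here gives the strand setting of the counting, and counts of overlapping genes are uncertain for that reason. Summary lines (24.6% to 26.3% of entries) were left out.

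Symbols matched 52480 identifiers with version and 1599 without, and 67 stayed unmatched. Counts were filtered with filterByExpr, scaled by TMM and tested over all genes with edgeR 4.0.16 (quasi-likelihood test, R 4.3.3, Benjamini-Hochberg, threshold 0.05). The steps were tested on simulated data. Standard errors came from the F statistic. Folds against a group without counts are bounds from 3 counts over that group. Exon lengths were not used here, so levels are not compared between genes.

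The members and gene lists were chosen with earlier results of these data known. Genes named were all members, up to 4 tested genes of each list with the smallest p, tested genes of both locus lists, the nearest profiles, and Setdb1. Genes at 0 or below the filter in the locus and marker lists are given by their counts and fall outside this rule. Other names are marked as chosen after their values were seen.

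Same-numbered libraries of both groups correlated in their deviations from the group means at 0.271, 0.225 and 0.205, so the numbers taken from the titles were treated as pairs in an alternative fit. Replicate 2 of MA9+EV correlated as well with replicate 3 of MA9+SETDB1 (0.240). Replicates 2 and 3 of a group differed by more than sampling noise (chi-square per degree of freedom 4.29 and 3.14, against 78.3 to 102 for pairs with replicate 1) and were kept as separate libraries.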

Additional observations from a re-analysis of the deposited data

How the results depend on the processing

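All 6 tested members stayed higher and called under each of the 13 alternatives run, namely RLE and upper-quartile scaling, no low-count filter, DESeq2 1.42.0, the replicate block, a prior count of 2, each of 6 libraries left out, and replicates 2 and 3 summed within each group. With the replicate block the log2 fold changes of Mcpt8 and Cpa3 were 3.48 and 13.43 (edgeR adjusted p = 0.0079 and 0.000133), and no call on a member changed. Over all alternatives the log2 fold change ranged from 2.91 to 4.13 for Mcpt8, 13.16 to 13.65 for Prss34, 12.35 to 15.03 for Cpa3, 10.14 to 14.28 for Cma1, 11.03 to 15.17 for Tpsg1 and 8.42 to 13.05 for Tpsb2. The lowest values of the last 4 came from the prior count of 2. The highest values of Cma1 and Tpsg1 came without MA9+EV replicate 1, which held the 1 count of each in that group, so the prior count sets them. The number of members called was 6 to 8, since Mcpt1 and Mcpt2 passed the filter under some of them. With libraries left out in turn, 2992 to 4231 genes were higher and 2727 to 4063 lower. With replicates 2 and 3 summed, 2292 were higher and 1928 lower, from fewer samples. Of 480 recomputed list counts 457 stayed within 1.5 times. Among those that moved, with replicates 2 and 3 summed, were storage and processing (8 higher), granule formation (3 lower) and inhibitors (2 lower), and the T and NK cell list went from 1 to 0 under the replicate block. Levels per kilobase, planned with 2 kinds of length, were not run. Depth limits Mcpt1, Mcpt2, Tpsab1 and Mcpt4, where a floor of 3 counts corresponds to 0.124 to 0.183 CPM in a single library.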

Other observations

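Several genes of the granule lists, chosen after their values were seen, shared the imbalance of Mcpt8 and Cpa3 between MA9+SETDB1 replicate 1 and the other two, and others showed the opposite. Relative to the mean of replicates 2 and 3, replicate 1 was at 5.83 for Slpi, 3.29 for Serpinb1a, 2.91 for Stx3, 2.77 for Ndst2 and 1.97 for Slc18a2. It was at 0.28 for Cpd, 0.289 for Serpinb6a, 0.315 for Gzmb, 0.339 for Furin, 0.369 for Ctsc and 0.474 for Hdc. Erythroid genes lay on both sides, with Slc4a1 at 4.49 and Hba-a1 at 0.387.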
